A study of Mus musculus with 4 samples.

Results

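The 44 genes described here encode subunits of ATP-dependent chromatin remodelers and were taken from a fixed list of symbols matched to the gene names of the deposited tables. The list held 26 subunits of BAF complexes, 9 CHD ATPases, 7 ISWI ATPases and partners, and the lone ATPases *Ino80* and *Smarcad1*, out of 53379 genes in the files. Of the 44, 43 passed edgeR's expression filter, together with 19105 other genes, so that 19148 genes were tested. *Actl6b*, an actin-like BAF subunit of neurons, was the exception, with 3, 3, 1 and 0 expected counts, all at or below a floor of 3 counts.

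Chromatin remodelers use ATP to slide, eject or restructure nucleosomes and thereby change the access of other proteins to DNA. BAF complexes are built around one ATPase, SMARCA4 or SMARCA2, and most of their other positions can be filled by one of several paralogs, so that the choice of paralog differs between stem cells and differentiated cells such as neurons and heart muscle. ISWI complexes space nucleosomes regularly, with a BAZ protein or BPTF beside the ATPase SMARCA5 or SMARCA1, and CHD proteins carry chromodomains that bind modified histones or DNA.

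RNA came from the *Terc* knock-out mouse embryonic stem cell line DKO741, made from E14 cells by replacing first one and then the other allele of *Terc*, the RNA template of telomerase, so that PD100 and PD800 cells both lack it. PD100 cells were taken before cells of this line came to maintain telomeres without telomerase (pre-ALT), and PD800 cells long after (post-ALT). There were 2 libraries of each, called biological duplicates in the study's methods. The time points are population doublings in the paper, whereas the labels also call them passages, and all cells belong to a single knock-out line grown without feeder cells for extraction. Nothing says whether the duplicates were separate cultures, so the p-values measure the spread between these libraries only, and time in culture cannot be told apart from the change in telomere maintenance.

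The expected counts, RSEM's estimates of read pairs per gene, summed to between 32454121 and 38492149 in the 4 libraries. The floor of 3 counts corresponded to 0.0743 to 0.0933 CPM and covers counting error only. CPM are counts scaled to the library total after its adjustment by edgeR's TMM factor. TPM values, which the authors' software scaled for gene length and to a common total, were used to set genes against each other. Over all tested genes, the median log2 change from PD100 to PD800 was 0.01 in edgeR's fit, -0.12 on log2(TPM + 1) and -0.21 on log2(TPM + 0.1), so that TPM levels of PD800 cells ran lower at the median and fold changes were taken from the counts. In 9 of the 43 tested remodeler genes, none of them past the threshold, the direction differed between the counts and a TPM scale: *Smarcd1*, *Smarcd2*, *Smarcb1*, *Ss18*, *Chd4*, *Chd6*, *Baz2a*, *Bptf* and *Ino80*. For *Terc* itself, the gene that was knocked out, the counts were 1 and 0 at PD100 and 0 in both PD800 libraries. Among the 9 pluripotency markers, 5 passed as higher in edgeR's test and 1 as lower, with *Nanog*, *Esrrb* and *Klf4* called higher and *Dppa3* called lower. *Pou5f1* lay between 296 and 325 TPM in every library, and the summed level was 753 to 835 TPM at PD100 and 1059 to 1119 TPM at PD800. Markers of other cell types moved as well. Summed TPM of 9 primitive and visceral endoderm markers was 236 and 257 at PD100 against 14.5 and 14.9 at PD800, with all 8 tested markers lower. The summed level of 9 fibroblast markers was 13.2 in both PD100 libraries against 3.71 and 3.78 at PD800, with 5 of 8 tested markers lower and *Lum* at 0 to 0.01 TPM throughout. In bulk RNA, fewer cells of a type and less RNA per cell cannot be told apart, and the part of these cells in the remodeler values below was not tested.

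As a set, the remodeler genes had a centre close to that of the whole transcriptome. Across the 43 tested, the median change from PD100 to PD800 was 0.04 in log2, against 0.01 over all tested genes. The median absolute change was 0.31 against 0.45, with no matching for expression level. Calls required an adjusted p under 0.01 (edgeR's quasi-likelihood test, Benjamini-Hochberg over all 19148 genes) together with a change of over 2-fold. By this rule 3 remodeler genes were higher in PD800 cells, *Smarcd3*, *Dpf1* and *Baz2b*, or 6.98% of those tested against 6.28% of all genes. Another 3 were lower, *Smarca2*, *Chd9* and *Baz1a*, again 6.98% against 8.81% of all genes. Without the fold threshold 8 were higher, 18.6% against 13.1%, and 5 were lower, 11.6% against 15.4%. These shares lie near the background, so what follows concerns which subunits moved and not how many. Of all calls over the genome, 41.6% were higher in this fit, but 24.4% on log2(TPM + 1) and 23.1% on log2(TPM + 0.1). With limma on either TPM scale no remodeler gene passed as higher, although 5 and 6 were higher at an unadjusted p under 0.05, whereas the 5 lower genes all passed. The 3 genes called higher had adjusted p-values from 0.011 to 0.02 in limma on these scales.

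**Figure D1:**
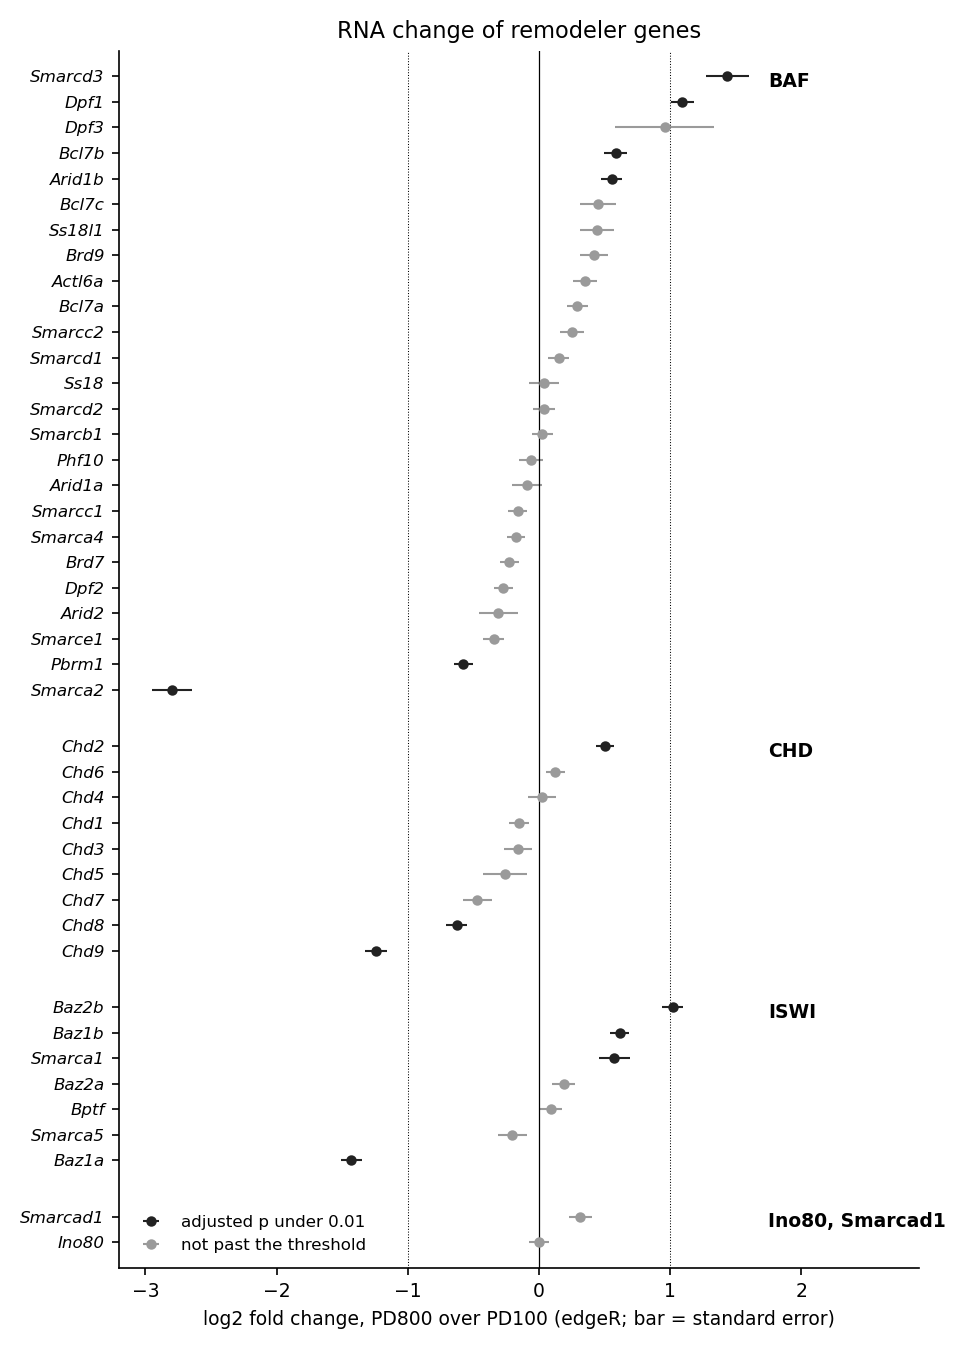
Each point is the log2 fold change of one remodeler gene, PD800 over PD100, from edgeR with its standard error, for the 43 tested genes grouped by complex; dotted lines mark a 2-fold change and black points passed an adjusted p of 0.01. Most genes lie within 2-fold, and *Smarca2*, at -2.80, stands farthest from 0.

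Whether the smaller changes passed depended on having both PD800 libraries. Without PD800 replicate 1, or without PD800 replicate 2, 3 genes passed as higher and 3 as lower, and the 7 genes that lost an adjusted p under 0.01 were the same in both cases: *Arid1b*, *Pbrm1*, *Bcl7b*, *Chd2*, *Chd8*, *Smarca1* and *Baz1b*. Their log2 fold changes stayed about as large. Without PD800 replicate 1 and without replicate 2, *Pbrm1* was at -0.61 and -0.54, against -0.58 with all libraries. *Smarca1* was at 0.61 and 0.54 against 0.58. In these fits the lone library was assumed to vary like the other group. Without PD100 replicate 1, 10 genes were higher and 10 lower, and without PD100 replicate 2, 11 and 9.

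Among BAF subunits, the ATPase position showed the largest change of all 43 genes. *Smarca2* (ENSMUSG00000024921.17, GRCm38 chromosome 19, 26605050 to 26778322, plus strand) encodes BRM, the alternative to the ATPase BRG1 that *Smarca4* encodes. *Smarca2* had 543 and 541 expected counts at PD100 and 81 and 64 at PD800, or 3.23 and 4.95 TPM against 0.58 and 0.49 TPM. The groups did not overlap, and the level was 6.96-fold lower at PD800 (log2 fold change -2.80, SE 0.15, edgeR adjusted p = 9.6e-05). *Smarca4* was at 26.49 and 23.68 TPM at PD100 and 19.43 and 18.44 TPM at PD800, a change of -0.17 in log2 (SE 0.07) that did not pass (edgeR adjusted p = 0.0929). *Smarca4* therefore made up 89.1% and 82.7% of the pair's TPM at PD100 and 97.1% and 97.4% at PD800. The mean rise was 11.3 percentage points, but 5.92 when counts were divided by the longest coding length of each gene in place of the lengths behind TPM. With 2 libraries against 2, an exact two-sided permutation test of any share cannot give a p below 0.333, which this pair reached.

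The SMARCD position, a core subunit that links the complex to transcription factors, changed in its rarest paralog. *Smarcd3* (ENSMUSG00000028949.13, chromosome 5, 24590818 to 24624411, minus strand), known from heart and neurons, had 155.56 and 98.29 expected counts at PD100 and 345.46 and 285.69 at PD800. In TPM these were 1.60 and 1.07 against 3.66 and 3.26, with every PD800 library above both PD100 libraries. The rise was 2.71-fold (log2 fold change 1.44, SE 0.16, edgeR adjusted p = 0.00109). *Smarcd1*, the paralog prominent in embryonic stem cells, was at 15.70 and 15.50 TPM against 15 and 14.37 TPM and did not pass. *Smarcd2* was at 18.98 and 19.78 TPM against 17.32 and 16.45 TPM and did not pass either. *Smarcd3* thus went from 4.41% and 2.94% of the family's TPM to 10.2% and 9.57%, still the smallest share of the 3. The mean rise was 6.19 percentage points, but 4.16 when counts were divided by the longest coding length. Exons of 22 of the 44 genes overlap an exon of another gene, in 16 cases on the opposite strand. Those of *Smarcd3* overlap exons of *Chpf2* on the opposite strand, which had 434 and 408 expected counts at PD100 and 727 and 695 at PD800. The study shows RNA-seq reads by direction of transcription, but whether the gene counts used strand is not given in the sources used here, so how reads of the overlap were assigned is uncertain.

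The start regions of these core genes, as RefSeq places them, are shown to set the paralogs that moved beside those that did not. The RefSeq start of *Smarcd3* lies 22.4 kb inside the gene as GENCODE M21 bounds it, so its window belongs to an internal start, and those of *Smarca2* and *Smarcd1* lie 110 and 158 bases inside. The windows run from 250 bases before to 50 bases after the RefSeq gene start in GRCm38.p6, 5′ to 3′ on the gene's strand, with matches to the GC box GGGCGG on either strand in capitals. *Smarca2* (chr19:26604910-26605209, plus strand) held 2 matches, *Smarca4* (chr9:21615919-21616218, plus strand) 3, *Smarcd1* (chr15:99702037-99702336, plus strand) 1 and *Smarcd3* (chr5:24601953-24602252, minus strand) 2, overlapping in the last.
Smarca2: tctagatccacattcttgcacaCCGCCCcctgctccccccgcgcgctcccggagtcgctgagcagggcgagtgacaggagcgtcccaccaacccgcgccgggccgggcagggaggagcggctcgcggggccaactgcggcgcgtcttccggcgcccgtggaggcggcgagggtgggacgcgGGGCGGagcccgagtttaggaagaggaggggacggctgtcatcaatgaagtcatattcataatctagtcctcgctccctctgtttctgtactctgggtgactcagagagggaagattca
Smarca4: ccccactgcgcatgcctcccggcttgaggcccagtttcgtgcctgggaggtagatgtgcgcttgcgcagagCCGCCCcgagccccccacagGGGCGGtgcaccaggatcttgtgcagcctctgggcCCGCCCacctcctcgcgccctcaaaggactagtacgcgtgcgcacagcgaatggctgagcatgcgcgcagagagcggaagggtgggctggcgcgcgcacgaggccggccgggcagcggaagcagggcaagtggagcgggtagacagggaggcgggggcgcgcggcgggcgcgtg
Smarcd1: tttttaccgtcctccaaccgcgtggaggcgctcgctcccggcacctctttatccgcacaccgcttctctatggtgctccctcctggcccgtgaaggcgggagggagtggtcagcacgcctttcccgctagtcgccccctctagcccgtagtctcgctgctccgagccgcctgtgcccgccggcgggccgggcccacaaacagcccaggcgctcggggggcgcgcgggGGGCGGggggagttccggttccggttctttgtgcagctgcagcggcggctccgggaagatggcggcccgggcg
Smarcd3: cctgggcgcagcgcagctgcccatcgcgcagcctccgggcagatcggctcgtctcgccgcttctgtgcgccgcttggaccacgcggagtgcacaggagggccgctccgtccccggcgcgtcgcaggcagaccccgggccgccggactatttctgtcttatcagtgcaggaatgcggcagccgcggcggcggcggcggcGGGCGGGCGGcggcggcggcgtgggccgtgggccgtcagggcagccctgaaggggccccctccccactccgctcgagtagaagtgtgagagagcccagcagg
The GC content of these windows was 65.7% for *Smarca2*, 72.3% for *Smarca4*, 71.3% for *Smarcd1* and 74.7% for *Smarcd3*. Of the 35 remodeler genes with such a window, 32 (91.4%) held a GC box, against 65.8% of 12059 tested genes and 38.2% of all 27025 genes with one. A TATAAA motif, searched on both strands, was in 2 of the 35 (5.71%), against 9.15% and 15.7%. Genes that rose, fell or did neither all carry GC boxes in these 4 windows, and a match is a description of the letters only.

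The DPF position, whose PHD fingers read acylated histone tails, shifted from one paralog towards another. *Dpf1* (ENSMUSG00000030584.14, chromosome 7, 29303951 to 29318243, plus strand), the neuronal form, had 379 and 304 expected counts at PD100 and 688 and 655 at PD800, or 5.22 and 6.32 TPM against 9.06 and 9.92 TPM. The libraries did not overlap, and the rise was 2.14-fold (log2 fold change 1.09, SE 0.09, edgeR adjusted p = 0.000343). *Dpf2*, the widely expressed form, was at 25.54 and 29.04 TPM against 19.28 and 18.63 TPM, and its log2 fold change of -0.27 (SE 0.07) did not pass. *Dpf1* rose from 16.8% and 17.7% of the family's TPM to 31.5% and 34.5%, a mean difference of 15.7 percentage points. *Dpf3* had 9 and 13 expected counts at PD100 and 21 and 19 at PD800, and at this depth its log2 fold change of 0.96 carried an SE of 0.38 and did not pass (edgeR adjusted p = 0.0872).

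ARID1 proteins, the DNA-binding subunits that distinguish canonical BAF from PBAF, showed a smaller shift of the same form. *Arid1b* was at 2.79 and 2.48 TPM at PD100 and 3.4 and 3.25 TPM at PD800, and rose by 0.56 in log2 (SE 0.08, edgeR adjusted p = 0.00254). *Arid1a*, the more abundant paralog, was at 16.14 and 12.11 TPM against 12.86 and 10.13 TPM and overlapped between groups. The share of *Arid1b* went from 14.7% and 17.0% to 20.9% and 24.3%. Among the small BCL7 subunits, *Bcl7b* was at 7.23 and 6.54 TPM against 9.0 and 8.39 TPM, and rose by 0.58 in log2 (SE 0.09, edgeR adjusted p = 0.00348). *Bcl7a* was at 2.85 and 2.57 TPM against 2.96 and 2.70 TPM, and *Bcl7c* at 14.17 and 19.91 TPM against 17.43 and 18.60 TPM. Neither of these passed, and the share of *Bcl7b* overlapped between groups, from 22.5% to 29.8% at PD100 and from 28.3% to 30.6% at PD800.

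PBAF is the BAF variant that carries ARID2, the bromodomain proteins PBRM1 and BRD7 and the PHD finger protein PHF10. Of these 4 subunits 1 fell, against 15.4% of all genes lower, a number of genes too small to read anything from. The gene that fell, *Pbrm1* (chromosome 14, 31019138 to 31121592, plus strand), was at 20.51 and 18.62 TPM at PD100 and 11.12 and 10.36 TPM at PD800, without overlap, a log2 fold change of -0.58 (SE 0.07, edgeR adjusted p = 0.00165). Its exons overlap those of *Gnl3* on the opposite strand, with 11549 and 10799 expected counts at PD100 against 6996 and 6450 at PD800, so part of either value may belong to the other gene. *Arid2* was at -0.31 (SE 0.15), *Brd7* at -0.22 (SE 0.07) and *Phf10* at -0.06 (SE 0.09), and none of the 3 passed. *Brd9*, which belongs to the non-canonical BAF complex, had a log2 fold change of 0.42 (SE 0.11) and did not pass at 0.01 (edgeR adjusted p = 0.0226). Its share against *Brd7* nevertheless went from 20.9% and 23.2% to 26.4% and 31.4% of their summed TPM. This mean difference of 6.89 percentage points was 4.37 without PD800 replicate 2.

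A grouping by the cell type each paralog is known from was made after the values had been seen and is given as a description. Of the 7 paralogs typical of embryonic stem cell BAF (*Smarca4*, *Smarcc1*, *Smarcd1*, *Arid1a*, *Dpf2*, *Actl6a* and *Ss18*), none passed in either direction in edgeR's test or in DESeq2, although 1 was higher and 2 were lower at an unadjusted p under 0.05 in edgeR, with log2 fold changes from -0.27 to 0.35 and a smallest adjusted p of 0.025. Of the 8 tested alternatives to them (*Smarca2*, *Smarcc2*, *Smarcd2*, *Smarcd3*, *Arid1b*, *Dpf1*, *Dpf3* and *Ss18l1*), 7 were above 0 and 3 passed as higher, while *Smarca2* was the exception and fell. Over all tested genes 13.1% passed as higher and 15.4% as lower, and nothing is read from a count in a group made in this way. Over the same libraries the summed TPM of 9 neural markers was 31.6 and 29.3 at PD100 and 40.5 and 38.6 at PD800. Of 6 tested markers 3 were higher (*Sox1*, *Pax6* and *Tubb3*) and *Nes* was lower, with *Dcx* at 0 in every library. The sum rose through *Tubb3*, at 17.84 and 14.81 TPM against 33.36 and 32.48 TPM. *Nes* fell from 9.75 and 11.89 TPM to 2.49 and 2.6 TPM, and *Sox1* and *Pax6* did not exceed 1.04 TPM. The summed level of 7 heart and muscle markers was 9.14 and 9.76 TPM against 5.06 and 4.76 TPM. Only 2 of them were tested, of which *Myh6* was lower and *Des* did not pass, and the rest did not exceed 0.22 TPM. The part of such cells in the BAF values was not tested. The remaining BAF subunits, *Smarcb1*, *Smarce1*, *Smarcc1*, *Smarcc2*, *Actl6a*, *Ss18* and *Ss18l1*, did not pass in edgeR's test, although *Smarce1* passed as lower in DESeq2. The core subunit *Smarcb1* had a log2 fold change of 0.03 (SE 0.08).

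**Figure D2:**
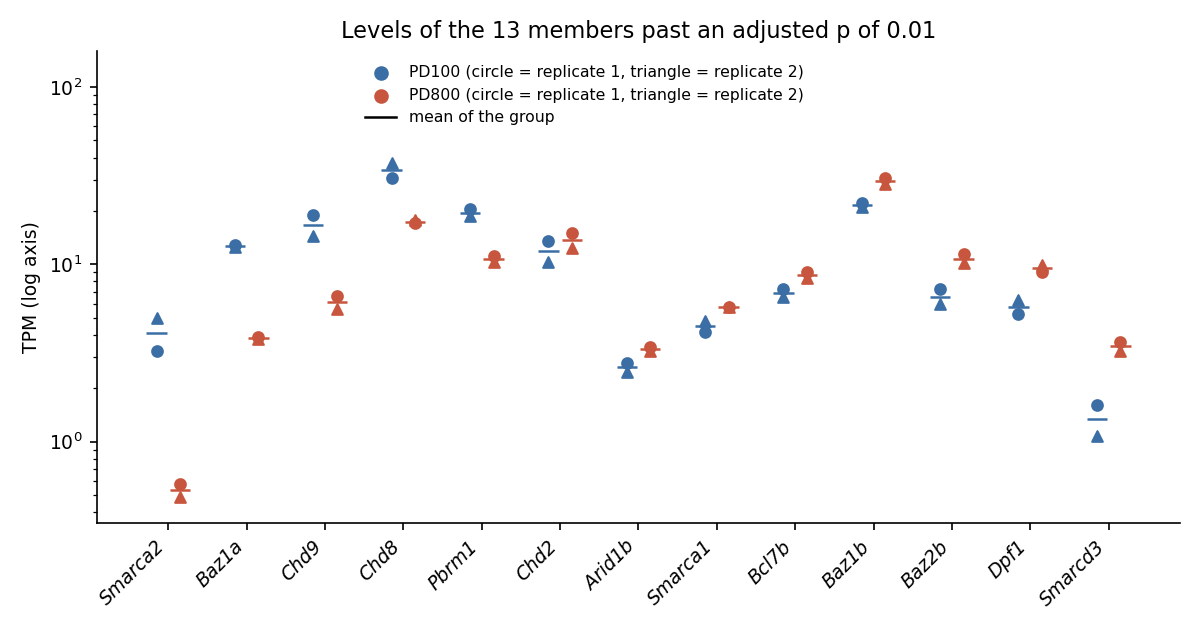
TPM on a log axis for the 13 remodeler genes past an adjusted p of 0.01, ordered by log2 fold change, with circles and triangles for replicates 1 and 2 and bars for group means. *Smarca2* drops from 3.23 and 4.95 to 0.58 and 0.49 TPM, and *Chd2* is the gene whose PD100 and PD800 libraries overlap on this scale.

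Of the 9 CHD genes, 2 fell, 1 rose and 6 did not pass in edgeR's test, counts too small to set against the 15.4% lower and 13.1% higher of all genes. Both that fell belong to the subfamily of *Chd6* to *Chd9*, large ATPases that bind promoters and enhancers. *Chd9* (ENSMUSG00000056608.14, chromosome 8, 90828352 to 91054516, plus strand) had 7114 and 5600 expected counts at PD100 and 2742 and 2226 at PD800, or 18.86 and 14.51 TPM against 6.63 and 5.57 TPM. The libraries did not overlap and the level was 2.36-fold lower (log2 fold change -1.24, SE 0.08, edgeR adjusted p = 0.000183). *Chd8*, a regulator of beta-catenin targets, was at 30.52 and 37.14 TPM against 17.05 and 17.74 TPM, and fell by 0.63 in log2 (SE 0.08, edgeR adjusted p = 0.00174). *Chd7*, which is mutated in CHARGE syndrome, was at 9.65 and 11.44 TPM against 6.52 and 6.16 TPM, and its log2 fold change of -0.47 (SE 0.11) fell short of the threshold (edgeR adjusted p = 0.0163), although it passed as lower in DESeq2. *Chd6* did not pass and was at 15.92 and 13.16 TPM against 13.97 and 13.88 TPM, with an edgeR log2 fold change of 0.12 (SE 0.07). As the summed TPM of the 4 genes was 75.0 and 76.3 at PD100 and 44.2 and 43.4 at PD800, the share of *Chd6* grew from 21.2% and 17.3% to 31.6% and 32.02%. The share of *Chd9* went from 25.2% and 19.0% to 15.01% and 12.8%, and that of *Chd8* overlapped between groups.

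*Chd2*, which like its paralog *Chd1* has been linked to placing the histone variant H3.3, was the CHD gene that rose. It had 2982 and 2404 expected counts at PD100 and 3719 and 3329 at PD800, an increase of 0.51 in log2 (SE 0.07, edgeR adjusted p = 0.00230). Its TPM overlapped between groups, at 13.58 and 10.29 against 15.04 and 12.35, and on log2(TPM + 1) limma gave an adjusted p of 0.425. Its exons overlap on the same strand those of the transcript 1810026B05Rik, which had 764 and 609 expected counts against 855 and 808, and how reads were split between them is uncertain. *Chd1*, which keeps stem cell chromatin open, was at 36.75 and 39.05 TPM against 28.05 and 28.45 TPM and did not pass in edgeR, with a log2 fold change of -0.15 (SE 0.07). *Chd4*, the NuRD ATPase and the most abundant of all 44 genes at both time points, was at 85.20 and 83.81 TPM against 77.37 and 75.22 TPM, with a log2 fold change of 0.03 (SE 0.11). It made up between 94.7% and 96.3% of the TPM of *Chd3*, *Chd4* and *Chd5* in the 4 libraries.

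Of the 7 ISWI genes, 3 rose, 1 fell and 3 did not pass in edgeR's test, again too few to set against the 13.1% higher and 15.4% lower of all genes. The 4 that passed were *Baz1a*, *Baz1b*, *Baz2b* and *Smarca1*. BAZ proteins are large partners with a bromodomain that direct the ATPase to its targets. *Baz1a* (ENSMUSG00000035021.13, chromosome 12, 54892989 to 55014348, minus strand), the ACF1 subunit, had 3514 and 3151 expected counts at PD100 and 1214 and 1077 at PD800, or 12.92 and 12.57 TPM against 3.88 and 3.77 TPM. The groups lay far apart relative to their spread, and the level was 2.70-fold lower (log2 fold change -1.43, SE 0.08, edgeR adjusted p = 0.000107). Its paralog *Baz1b*, the Williams syndrome transcription factor, was at 22.29 and 21.10 TPM against 30.77 and 28.51 TPM, and rose by 0.61 in log2 (SE 0.08, edgeR adjusted p = 0.00142). *Baz1a* thus dropped from 36.7% and 37.3% of the pair's TPM to 11.2% and 11.7%, a mean difference of -25.6 percentage points and the widest of the 15 families compared. The summed TPM of the pair overlapped between groups, at 35.2 and 33.7 before and 34.7 and 32.3 after.

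*Baz2b* (ENSMUSG00000026987.16, chromosome 2, 59899363 to 60209839, minus strand), a bromodomain partner of ISWI ATPases, had 1098 and 850 expected counts at PD100 and 1949 and 1688 at PD800. In TPM it was at 7.21 and 5.94 against 11.41 and 10.13, without overlap, and the rise of 2.03-fold (log2 fold change 1.02, SE 0.08, edgeR adjusted p = 0.000282) lay just past the fold threshold. Without PD100 replicate 2 its log2 fold change was 0.95, and without PD800 replicate 1 it was 0.996, so that it was no longer called, although its adjusted p stayed under 0.01. *Baz2a*, the TIP5 subunit of the nucleolar complex that silences ribosomal genes, was at 15.16 and 14.61 TPM against 15.94 and 13.57 TPM and did not pass. *Baz2b* made up 32.2% and 28.9% of the pair at PD100 and 41.7% and 42.7% at PD800.

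Of the ATPases themselves, *Smarca1* (SNF2L, the form typical of neurons) was at 4.15 and 4.82 TPM against 5.73 TPM in both PD800 libraries, and rose by 0.58 in log2 (SE 0.12, edgeR adjusted p = 0.00937). *Smarca5* (SNF2H), the main ISWI ATPase of stem cells, was at 68.08 and 71.65 TPM against 49.99 and 52.32 TPM, with a log2 fold change of -0.20 (SE 0.11) in edgeR that did not pass. *Smarca1* stayed the minor form, at 5.75% and 6.30% of the pair before and 10.3% and 9.87% after. *Bptf*, the histone-reading subunit of NURF, had a log2 fold change of 0.09 (SE 0.08). *Ino80*, the ATPase of the complex of that name, was at 0.00 (SE 0.08), and *Smarcad1*, which acts in heterochromatin maintenance and at DNA breaks, was at 0.32 (SE 0.09). None of these 3 passed.

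**Figure D3:**
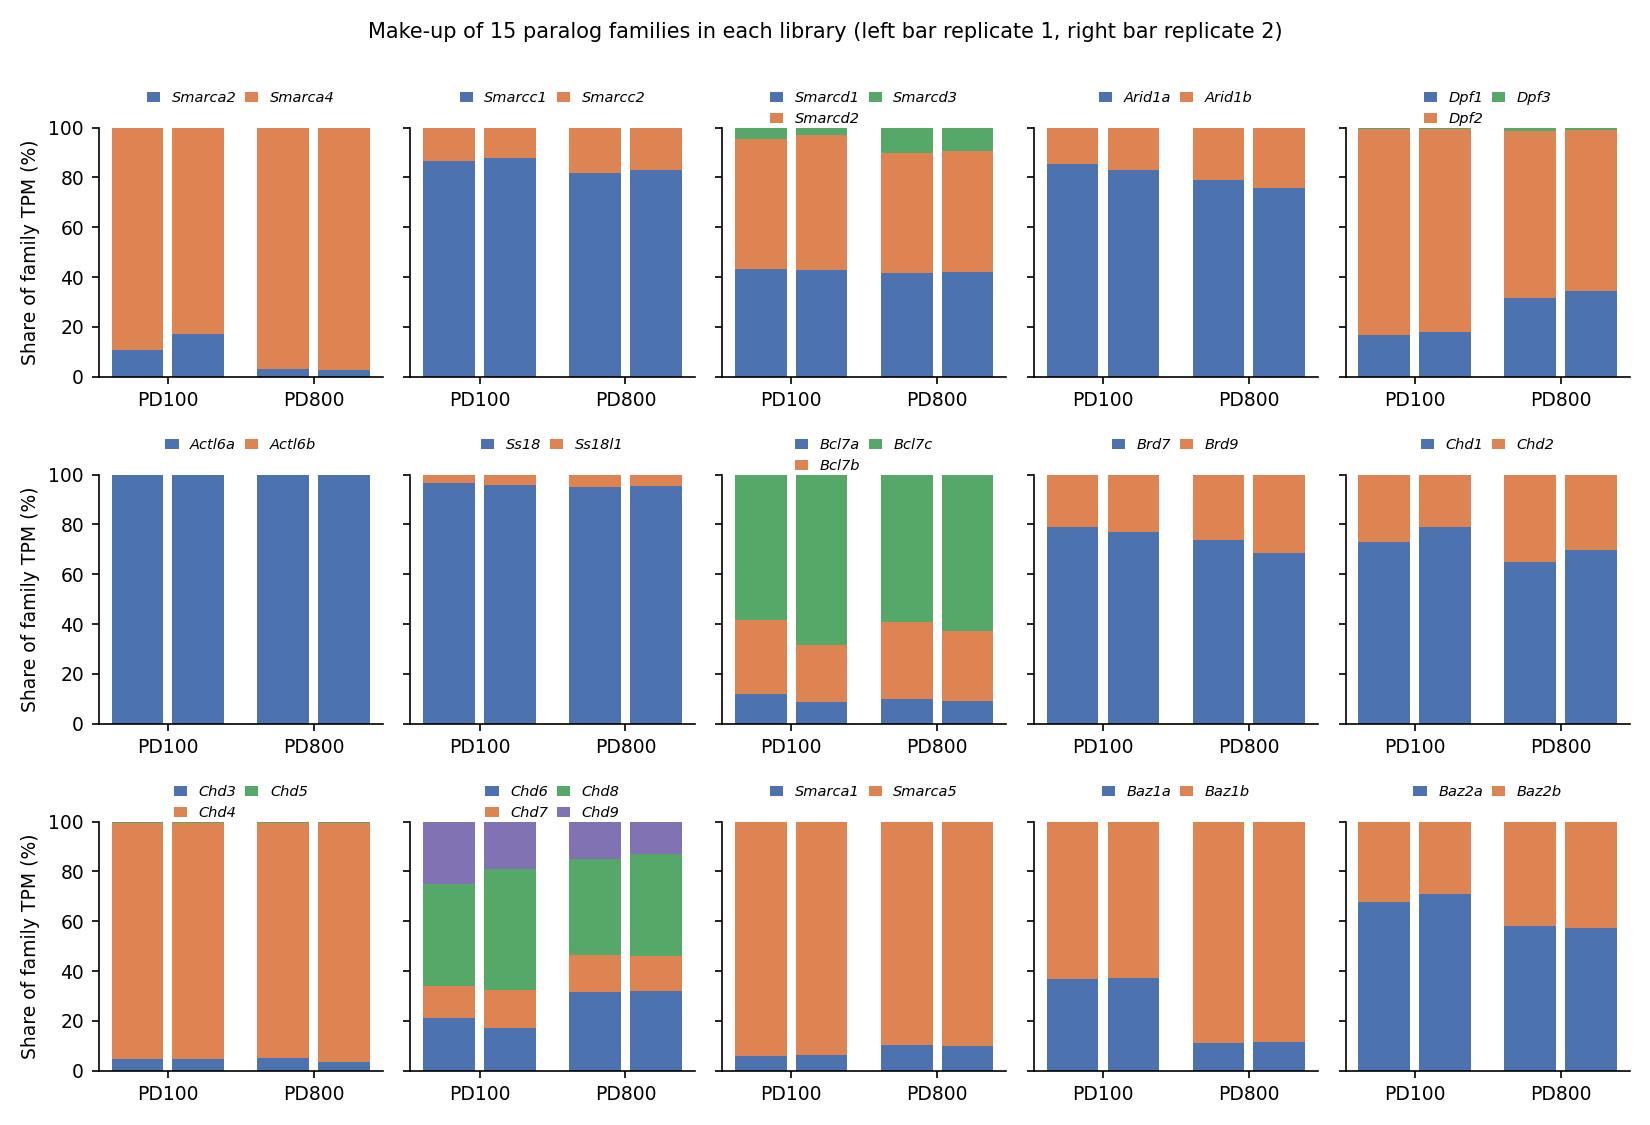
Stacked bars give each paralog's percent of its family's summed TPM in the 4 libraries, for 15 families. The widest shift is in *Baz1a* and *Baz1b*, where *Baz1a* goes from 36.7% and 37.3% to 11.2% and 11.7%, while the *Actl6a* and *Ss18* families show little movement.

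In 9 of the 15 families at least 1 paralog's mean share moved by over 5 percentage points. Families of other genes were not counted, so this is not read as particular to remodelers. The number was 8 of the 15 when counts per longest coding length were used, and 11 without PD100 replicate 1. Without PD800 replicate 2 the number was again 9, but *Brd7*/*Brd9* was no longer among them and *Smarcc1*/*Smarcc2* was. In the comparison of all libraries, families whose shares stayed within 5 points were *Smarcc1*/*Smarcc2*, *Actl6a*/*Actl6b*, *Ss18*/*Ss18l1*, *Bcl7a*/*Bcl7b*/*Bcl7c*, *Chd3*/*Chd4*/*Chd5* and *Smarca1*/*Smarca5*. *Smarcc1*, a core scaffold subunit, made up 86.6% and 87.7% of its pair at PD100 and 81.9% and 82.8% at PD800. *Actl6a* made up 99.9% of its pair in both PD100 libraries, and *Actl6b* was at 0.01 and 0 TPM at PD800.

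A further readout, which the choice of genes did not use, is the mean transcript length that RSEM weights by the abundance of each isoform. Among 40 remodeler genes with at least 1 TPM in every library, the lengths of 11 (27.5%) did not overlap between PD100 and PD800, against 29.1% of 11210 genes, a share near the background. With 1 library left out, so that a group held a single value, the number was 17 to 30. The largest gap was in *Bptf*, at 7885 and 7467 bases at PD100 and 8455 and 8293 bases at PD800. *Baz1b* was shorter at PD800, at 5626 and 5678 bases against 5910 and 5972, and so was *Smarcd3*, at 1853 and 1819 bases against 2044 and 2093. *Baz1a*, in contrast, was longer, at 5761 and 5574 bases against 5399 and 5440. These lengths give a mix of isoforms and not the isoform itself.

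Position on the chromosome was examined through the genes that lie nearest to each member. The 40 tested genes nearest to *Smarca2* had a median log2 fold change of -0.37, and those nearest to *Chd9* one of -0.45, both in the direction of the gene but far smaller. *Baz1a* had neighbours with a median of -0.00, and *Baz2b*, which rose, had neighbours at -0.16. *Smarcd3* and *Dpf1* each had neighbours at 0.20. *Bcl7b* and *Baz1b* lie next to each other on chromosome 5, 5.41 kb apart on the same strand, rose by like amounts (0.58 and 0.61), and had neighbours at 0.27 and 0.28. For *Pbrm1* the value was -0.33, for *Chd8* -0.16, and for *Arid1b*, with 27 neighbours, -0.16. In all 13 passing genes the neighbours' median was smaller in size than the gene's own change, and DNA copy number was not analysed here. Of the 24 passing partner genes described next or counted with them, 5 had neighbours whose median was at least as large in size: *Mta3*, at -0.66 with neighbours at -0.96, and *Actr8*, *Yy1*, *Shprh* and *Ttf2*. For *Hdac2*, at -0.70, and *Actr6*, at 1.11, the neighbours lay closer to 0, at -0.69 and 0.89. Neighbours of *Bcl11b* were at 0.92, *Yeats4* 0.74, *Mta1* 0.46, *Gatad2a* -0.52 and *Hmgxb4* -0.54, each in the direction of the gene. Those of *Actb*, which fell, were at 0.18.

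**Figure D4:**
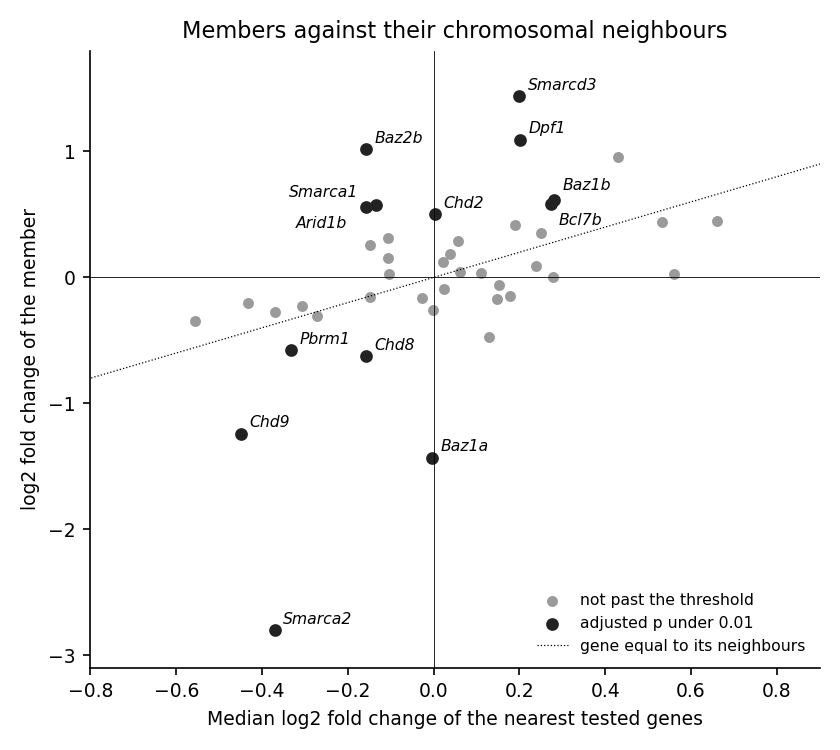
The log2 fold change of each of the 43 tested remodeler genes (vertical axis) against the median of its nearest tested genes on the chromosome (horizontal axis, a narrower scale), with the dotted line where both are equal. *Smarca2*, *Baz1a*, *Chd9*, *Smarcd3*, *Dpf1* and *Baz2b* lie far from that line, and *Baz1b* and *Bcl7b* lie together.

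Other components of the same machinery were counted from lists of partners. Their counts from edgeR's test stand against 13.1% of all genes higher and 15.4% lower, and since the lists are short nothing particular to a list is read from them. Of 12 NuRD subunits, which act with *Chd4*, 1 rose and 3 fell, none by over 2-fold, whereas DESeq2 passed 1 as higher and 5 as lower. *Mta1* rose by 0.56 in log2 (SE 0.09, edgeR adjusted p = 0.00403) and its paralog *Mta3* fell by 0.66 (SE 0.09, edgeR adjusted p = 0.00242), while *Mta2* did not pass, at -0.33. *Gatad2a* was at 48.71 and 52.94 TPM against 27.20 and 21.79 TPM, and fell by 0.73 (SE 0.08, edgeR adjusted p = 0.00104), while *Gatad2b* was at 0.21 and did not pass. Neither *Mbd2*, at 0.10, nor *Mbd3*, at -0.20, passed. The fourth gene of this list to pass, the deacetylase *Hdac2*, was chosen after its values were seen and fell by 0.70 (SE 0.10, edgeR adjusted p = 0.00247). None of *Mta1*, *Mta3*, *Gatad2a* and *Hdac2* passed in edgeR when either PD800 library was left out.

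Of 5 other BAF-associated genes, *Bcl11b*, a zinc finger factor of T cells and neurons, was called higher but remained low, at 0.16 and 0.20 TPM against 0.70 and 0.76 TPM (log2 fold change 2.36, SE 0.17, edgeR adjusted p = 0.000219). *Actb*, whose product is a BAF subunit besides forming the cytoskeleton, was at 1661 and 1618 TPM against 790 and 794 TPM. It fell by 0.80 in log2 (SE 0.09, edgeR adjusted p = 0.000985). Without PD800 replicate 1 or 2 it no longer passed, although its log2 fold change was -0.77 and -0.83. Without these libraries 16 and 15 of the 24 passing partner genes no longer passed in edgeR, *Bcl11b* and *Yeats4* not among them, and without either PD100 library all 24 still passed. Of 6 ISWI partners 3 rose and 1 fell. The one that fell, *Hmgxb4*, was at -0.99 (SE 0.10) in edgeR and at -1.002 in DESeq2, on either side of the 2-fold line. Of 4 partners of CHD proteins in ChAHP and related complexes none passed in edgeR's test and 1 had an unadjusted p under 0.05. This gene, *Adnp*, which binds the CHD4 protein and was chosen after its values were seen, had 310 and 365 expected counts against 121 and 185 (log2 fold change -1.03, SE 0.29, edgeR adjusted p = 0.029, DESeq2 adjusted p = 0.00225). Of 29 INO80, SRCAP and TIP60 subunits 5 rose and 4 fell. The 2 called were *Yeats4*, a histone acetyl reader, at 19.75 and 20.67 TPM against 60.40 and 60.79 TPM (log2 fold change 1.82, SE 0.10, edgeR adjusted p = 0.00011), and *Actr6*, an actin-related SRCAP subunit, at 6.66 and 6.62 TPM against 12.17 and 12.01 TPM (log2 fold change 1.11, SE 0.08, edgeR adjusted p = 0.00027). Of 15 other SNF2 family ATPases, 4 rose and 1 fell, none by over 2-fold. The lists had median log2 fold changes between -0.14 (NuRD) and 0.29 (ISWI partners), against 0.01 over all tested genes.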

How the data were processed

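RNA of PD100 and PD800 DKO741 cells was sequenced as paired ends, in 2 libraries each. The paper speaks of mRNA sequencing, whereas the labels name total RNA. The authors aligned reads to mm10 with STAR 2.5.3a and deposited, for each gene, RSEM 1.3.0 expected counts, the abundance-weighted transcript length and TPM values, which are scaled per length and library. The annotation release is not given in the sources used here, and positions, exons and neighbours came from GENCODE M21 (GRCm38), matched by gene identifier without version. All 44 members were found.

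Expected counts were rounded and tested with the quasi-likelihood F-test of edgeR 4.0.16 (R 4.3.3) after its expression filter at 10 counts and TMM scaling, with Benjamini-Hochberg adjustment over 19148 genes. Standard errors of log2 fold changes were derived from edgeR's test, as the absolute log2 fold change over the square root of the F statistic. Paralog shares are percentages of summed TPM in a library. Neighbours were the 40 nearest tested genes. Promoter windows came from RefSeq. The procedure was tested on simulated data. The members, families and lists were chosen with earlier results of these data known. Named by rule were members past an adjusted p of 0.01 and their paralogs, called genes of the partner lists (at most 4 per list) and NuRD paralogs. Other members, *Actb*, *Hmgxb4*, *Hdac2* and *Adnp* were named after their values were seen. The authors' own DESeq2 1.18.1 results were not used. Alternatives were DESeq2 1.42.0, its size factors, upper-quartile factors, no mitochondrial genes, other filters, limma 3.58.1 on TPM, glmTreat, an adjusted p of 0.05, the replicate number as a block, other lengths for shares, and each library left out. Replicates correlated at 0.992 (PD100) and 0.997 (PD800) in log2 CPM, against 0.955 to 0.961 between groups. They differed beyond sampling noise, with a chi-square per degree of freedom of 64.1 and 9.73.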

Additional observations from a re-analysis of the deposited data

How the results depend on the processing

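The 3 members called lower stayed called under every alternative except the glmTreat test of a 2-fold change, which called 2. The 3 called higher stayed called with DESeq2, the other scaling factors, the filters and the looser adjusted p, but numbered 0 with limma on log2(TPM + 1), 0 with limma on log2(TPM + 0.1) and 0 with glmTreat, where 5, 6 and 1 members were higher at an unadjusted p under 0.05. Leaving out single libraries gave 2 to 3. Without the fold threshold, 0 members were higher with limma on either TPM scale, against 8 in edgeR. Without an expression filter 12 were higher and 8 lower, and in DESeq2 8 and 7, against 8 and 5. Each library left out in turn gave 3 to 11 higher and 3 to 10 lower. The median change of the members was -0.19 on log2(TPM + 1) and -0.20 on log2(TPM + 0.1), where all genes had -0.12 and -0.21. The lengths of 17 to 30 members did not overlap when 1 library was left out, against 11, since a single library has no spread. Over all genes, 297 were called higher and 920 lower on log2(TPM + 1), and 533 and 1779 on log2(TPM + 0.1), against 1202 and 1686. No fold change of the 13 passing members, and no share of a paralog that moved by over 5 points, reversed under the alternatives tried. Of the 43 tested members, 9 that did not pass differed in sign between the counts and a TPM scale.

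The labels number the replicates but do not say that a number marks a shared batch, and the deviations of same-numbered libraries correlated at 0.388 over only 2 pairs, so the numbers were not taken to pair the samples. With the replicate number as a block, 13 members were higher and 8 lower without the fold threshold, among them all 8 and 5 of the fit without it, and 3 and 3 were called.

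The depth limits *Actl6b*, *Dpf3* and *Chd5*, which averaged under 1 TPM at PD100. It also limits the shares of *Smarca2* at PD800 (81 and 64 expected counts) and *Smarcd3* at PD100 (155.56 and 98.29). At PD100 *Smarca2* had 543 and 541 expected counts but 3.23 and 4.95 TPM, so the spread of its share there does not come from few counts.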
